A study of Mus musculus with 4 samples.

Results

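Endoplasmic reticulum stress and folding genes were followed in the mouse globus pallidus, a GABAergic nucleus of the basal ganglia that receives its main input from the striatum. The set was fixed by gene symbol and holds Hspa5, Hsp90b1, Calr, Pdia4, Dnajb9, Manf, Herpud1, Xbp1, Atf4 and Ddit3. All 10 were on the array, measured by 14 spots, among 19087 genes with a single symbol. Cocaine mice were male, of C57BL6 background, received cocaine at 15 mg/kg on days 2, 3 and 4 of a conditioned place preference protocol, and had a low preference score. Saline mice were also male C57BL6 and received saline on those days. The labels give no age, so none is stated. In this protocol the score is read from the time an animal spends in a drug-paired compartment. Each of 4 Agilent arrays of 60-mer probes in the 44k format held RNA of 1 cocaine mouse and of 1 saline mouse. On arrays 1 and 3 the cocaine sample carried Cy5, and on arrays 2 and 4 it carried Cy3. Because all cocaine mice had a low score, the drug and the score cannot be told apart.

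The endoplasmic reticulum (ER) folds secreted and membrane proteins with the help of chaperones and of enzymes that form disulfide bonds. When unfolded proteins build up there, the sensors IRE1, PERK and ATF6 start the unfolded protein response. IRE1 splices the Xbp1 mRNA, PERK slows translation while favouring that of Atf4, and ATF6 is cleaved into a transcription factor. Chaperone genes are known targets of ATF6 and XBP1, and Ddit3 is a known target of ATF4. The arrays measured total mRNA, so neither Xbp1 splicing nor ATF4 protein was read.

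Values are log2 ratios of cocaine over saline after loess normalization of the dye bias. That direction follows the study's design text, which names cocaine first and saline as what it is compared to. It is likely but not settled by the files, and every sign given here reverses if the deposited ratios were saline over cocaine. The deposited columns correlated at 0.90 (arrays 1 and 3) and 0.87 (arrays 2 and 4) within a dye orientation and between -0.96 and -0.83 across orientations, and were therefore read as already turned to 1 treatment direction. Normalization removes each gene's own dye effect, so the mean over arrays 1 and 3 lies close to the mean over arrays 2 and 4, and the 4 values of a gene are not independent. No scanner intensities were used, so no level is given for any gene, and less RNA per cell cannot be told apart from fewer cells of a type. A spot was called above background by a stand-in, an averaged dye bias over 0.0935 on the log2 scale, which all 14 spots of the set passed. By the same stand-in, 73.5% of all genes had a spot above background, with 11 of 11 markers of pallidal neurons, 9 of 9 of oligodendrocytes and 8 of 8 of astrocytes, so it does not check the dissection.

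In no gene of the set did the difference between cocaine and saline mice pass the test against the spread between arrays. By limma, 0 of 10 had an adjusted p under 0.05, against 0% of 30452 features, and the adjusted p was 0.999 for each of the 10. The smallest adjusted p of all features was also 0.999, so this value does not set the 10 genes apart. At an unadjusted p under 0.05 there were also 0 of 10, against 1.74% of all features and 1.52% of genes. The mean was above 0 for 5 genes and below 0 for 5. The median of the 10 fitted ratios was 0.009, and that of all genes was -0.003. Behind these means near 0 lay array values that differed by up to 1.81-fold for a single gene, Hsp90b1, whose 2 spots differed in amplitude. The chaperones were high on arrays 2 and 3 and the transcription factors on array 3 alone.

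**Figure D1:**
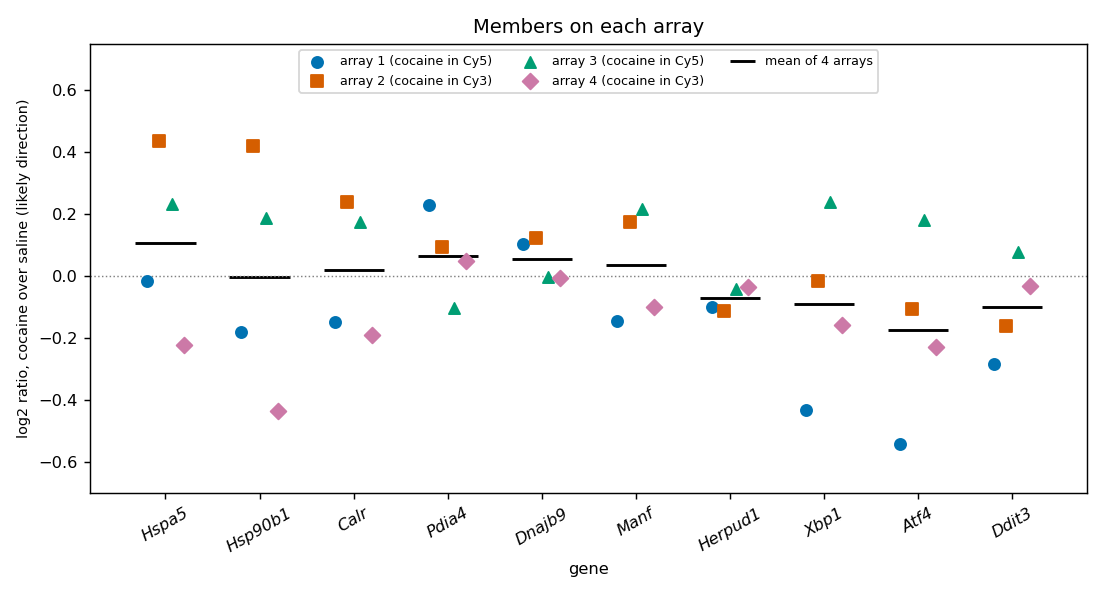
Log2 ratio of cocaine over saline (vertical axis, likely direction) for each of the 10 genes (horizontal axis). Each symbol is 1 of 4 arrays and each black bar the mean of the 4. Hspa5, Hsp90b1, Calr and Manf are above 0 on arrays 2 and 3 and below 0 on arrays 1 and 4, and Xbp1, Atf4 and Ddit3 are above 0 on array 3 alone.

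The chaperones of the ER lumen are described first. Their promoters are shown because 3 of the 10 genes, these 3 chaperones, hold the ER stress element (ERSE), the sequence through which ATF6 is known to act on chaperone genes. It was searched as CCAAT, then 9 bases of any kind, then CCACG, on both strands, in windows of 250 bases before to 50 after each annotated start. The sequences are from RefSeq (GRCm38.p6), written 5′ to 3′ on the strand of the gene, with the fixed letters of each motif in capitals. The Hspa5 stretch is chr2:34772013-34772055 (+ strand), with the ERSE from 65 to 47 bases before the start. The Calr stretch is chr8:84847063-84847105 (- strand), with an ERSE on the opposite strand from 162 to 144 bases before the start. The Hsp90b1 stretch is chr10:86705521-86705668 (- strand), with 1 ERSE on the gene's strand, from 212 to 194 bases before the start, and 1 on the opposite strand, from 107 to 89.
Hspa5: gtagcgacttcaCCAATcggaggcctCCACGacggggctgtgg
Calr: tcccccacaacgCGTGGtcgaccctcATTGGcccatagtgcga
Hsp90b1: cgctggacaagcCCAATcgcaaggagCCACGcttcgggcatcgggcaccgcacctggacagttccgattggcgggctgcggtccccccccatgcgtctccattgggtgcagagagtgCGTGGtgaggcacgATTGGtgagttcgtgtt

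Of 27025 genes with such a window, 37 (0.137%) held an ERSE. Promoter windows were found for 9 of the 10 genes, all but Manf. A match is a description of letters, not of binding. With the spots of a gene averaged, these 3 genes shared their order of highs and lows on the arrays, but the second Calr spot did not. The normalization limits which orders can occur, and the share of all genes with this order was not counted. A link between motif and array values was not tested.

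Hspa5 encodes BiP, the Hsp70 chaperone of the ER lumen that also restrains the stress sensors. Its log2 ratio was -0.02, 0.44, 0.23 and -0.22 on arrays 1 to 4. Array 2 was high and array 4 low, 1.58-fold apart. The fitted ratio was 0.11 (SE 0.12, n = 4 arrays), with a 95% interval from -0.19 to 0.41, so a difference between 1.14-fold lower and 1.33-fold higher lies within the error.

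Hsp90b1 encodes the Hsp90 chaperone of the ER. Its log2 ratio was -0.18, 0.42, 0.19 and -0.43 on arrays 1 to 4. Arrays 2 and 3 were high and arrays 1 and 4 low, with a range of 0.86 on the log2 scale, or 1.81-fold. Over the arrays the fit gave -0.002 (SE 0.15), with a 95% interval from -0.39 to 0.38. Its 2 spots differed in amplitude. The first stood at -0.38, 0.63, 0.28 and -0.76 on arrays 1 to 4. The second stood at 0.01, 0.22, 0.10 and -0.11. Both spots were highest on array 2 and lowest on array 4.

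Calr encodes calreticulin, a calcium-binding lectin chaperone of glycoproteins. Its log2 ratio was -0.15, 0.24, 0.18 and -0.19 on arrays 1 to 4, again high on arrays 2 and 3 and low on arrays 1 and 4. Its fitted ratio came to 0.02 (SE 0.10), with a 95% interval from -0.22 to 0.26. Its 2 spots had the same signs on every array. They stood at -0.18, 0.37, 0.17 and -0.35 for the first spot. The second spot had -0.12, 0.11, 0.18 and -0.03, so the first was the more uneven of the pair.

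**Figure D2:**
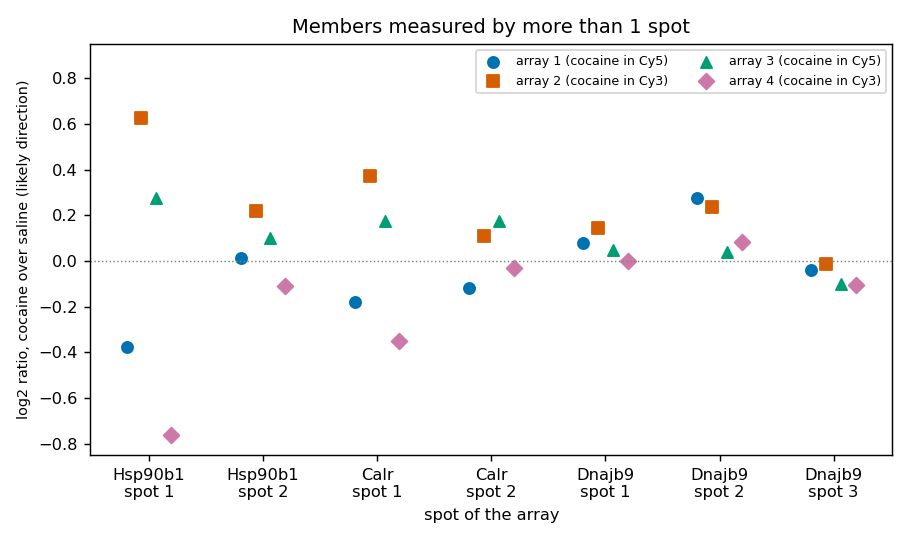
Log2 ratio of cocaine over saline (vertical axis, likely direction) for each spot of the 3 genes with more than 1 spot (horizontal axis), with 1 symbol per array. The first Hsp90b1 spot runs from -0.76 to 0.63 and the second from -0.11 to 0.22, with array 2 highest and array 4 lowest in both.

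Manf is a small secreted protein of the ER lumen that promotes neuronal survival. It had log2 ratios of -0.15, 0.17, 0.22 and -0.10 on arrays 1 to 4, with the same signs as Hsp90b1 and Calr. The fitted ratio was 0.04 (SE 0.08), with a 95% interval from -0.18 to 0.25. In all, 4 of the 10 genes were above 0 on arrays 2 and 3 and below 0 on arrays 1 and 4, against 10.9% of all genes. This sign pattern was picked after the values were seen and was given no test.

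Pdia4, a protein disulfide isomerase, did not share it. Its log2 ratio was 0.23, 0.09, -0.10 and 0.05 on arrays 1 to 4, highest on array 1, where the chaperones were at or below 0. The fit gave 0.07 (SE 0.07), with a 95% interval from -0.11 to 0.24. Dnajb9 encodes ERdj4, a co-chaperone of BiP and a known XBP1 target. It had 0.10, 0.12, -0.004 and -0.007 on arrays 1 to 4, a range of 0.13 on the log2 scale. Its fitted ratio came to 0.05 (SE 0.05), with a 95% interval from -0.08 to 0.19. The means of its 3 spots were 0.07, 0.16 and -0.06, so 1 spot lay on the other side of 0.

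Herpud1 encodes a membrane protein of ER-associated degradation, the route by which misfolded proteins are passed to the proteasome. Its log2 ratio was -0.10, -0.11, -0.04 and -0.03 on arrays 1 to 4. It was the only one of the 10 with the same sign on 4 of 4 arrays, against 14.8% of all genes, and its range was 0.08 on the log2 scale. The fitted ratio was -0.07 (SE 0.05), with a 95% interval from -0.19 to 0.05. Its promoter is shown because it holds motifs of both other kinds found in the set. One is ERSE-II, searched as ATTGG, any base, then CCACG. It shares the letters CCACG with the ERSE and occurred in 0.0444% of genes. The other is the core of the C/EBP-ATF element (CARE), searched as TGATGNAA, an ATF4 sequence that occurred in 4.51% of genes. The stretch is chr8:94386305-94386399 (+ strand), with the CARE on the opposite strand from 112 to 105 bases before the start and ERSE-II from 52 to 42.
Herpud1: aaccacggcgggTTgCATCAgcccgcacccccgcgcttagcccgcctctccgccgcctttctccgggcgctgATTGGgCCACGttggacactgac

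The XBP1 element TGACGTGG, searched in the same way, was in 0 of the 9 windows and in 0.714% of all genes. In Xbp1, Atf4, Ddit3, Pdia4 and Dnajb9 none of the 4 motifs was found in the window searched.

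The transcription factors of the response were, like the chaperones, below 0 on arrays 1 and 4 and above 0 on array 3. They differed in sign from the chaperones on array 2, where all 3 were below 0. Xbp1, whose spliced form drives chaperone and degradation genes, had log2 ratios of -0.43, -0.02, 0.24 and -0.16 on arrays 1 to 4. Arrays 1 and 3, which share a dye orientation, differed by 0.67 on the log2 scale, or 1.59-fold. Over the arrays the fit gave -0.09 (SE 0.12), with a 95% interval from -0.38 to 0.20.

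Atf4, the effector of the PERK branch and of the wider integrated stress response, had -0.54, -0.11, 0.18 and -0.23 on arrays 1 to 4. It was low on 3 arrays and high on array 3, a range of 0.73 on the log2 scale, or 1.65-fold. Its fitted ratio came to -0.17 (SE 0.12), with a 95% interval from -0.49 to 0.14.

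Ddit3 encodes CHOP, a transcription factor of prolonged stress. It had -0.28, -0.16, 0.08 and -0.03 on arrays 1 to 4, in the same order as Atf4 at its low and high ends. The fit gave -0.10 (SE 0.07), with a 95% interval from -0.29 to 0.09. These 3 of the 10 genes were above 0 on array 3 alone, as were 7.61% of all genes. This pattern too was picked after the values were seen. On array 2 the groups of genes did not overlap: the 3 chaperones lay between 0.24 and 0.44 and the 3 transcription factors between -0.16 and -0.02. On array 1 the chaperones lay between -0.18 and -0.02 and the transcription factors between -0.54 and -0.28. On arrays 3 and 4 both groups overlapped. No test was run on these differences between groups of genes.

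**Figure D3:**
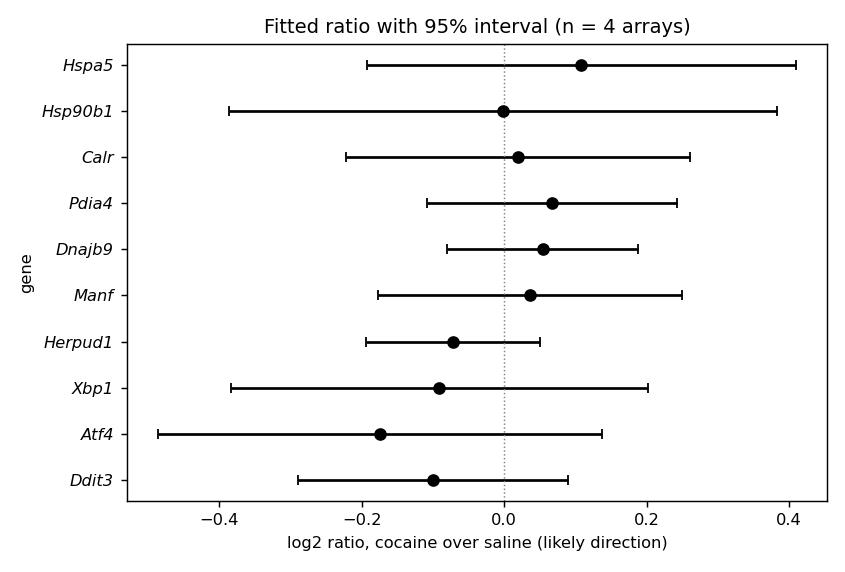
Fitted log2 ratio of cocaine over saline (horizontal axis, likely direction) with its 95% interval from limma, for each gene (vertical axis, n = 4 arrays). Every interval includes 0, and that of Hsp90b1, from -0.39 to 0.38, is wider than that of Herpud1, from -0.19 to 0.05.

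The genes differed among themselves in how far their 4 array values lay apart. The range over arrays had a median of 0.40 on the log2 scale over the 10 genes, against 0.23 over the 14029 genes with a spot above background. Of those genes, 1.35% had a wider range than Hsp90b1 and 2.72% had a wider range than Atf4. The shares were 3.71% for Xbp1, 4.01% for Hspa5 and 16.7% for Calr. At the other end, 77.7% had a wider range than Dnajb9 and 91.1% a wider one than Herpud1. The set therefore held both uneven and even genes. The range of Hsp90b1 is that of the average of 2 unlike spots. The first ran from -0.76 to 0.63 and the second from -0.11 to 0.22.

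**Figure D4:**
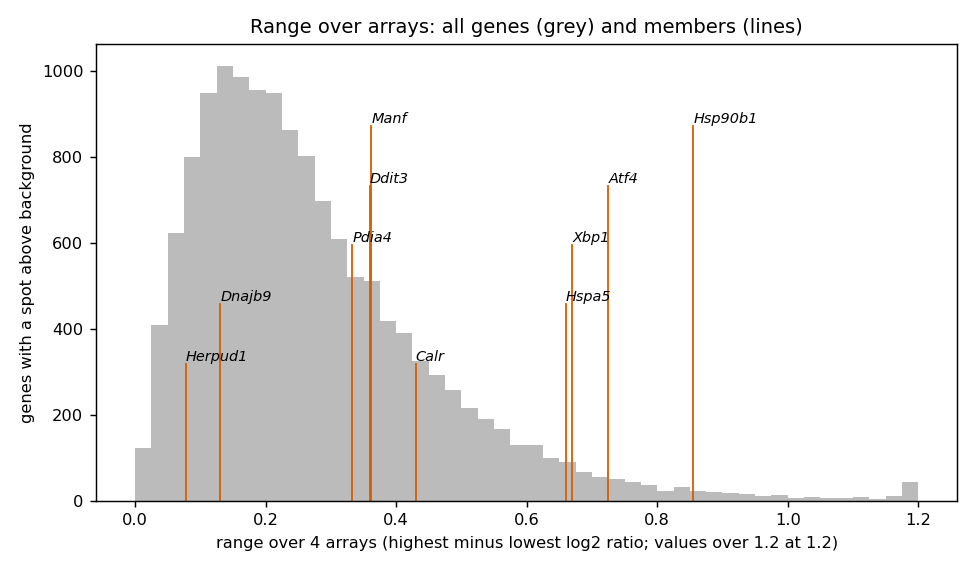
Range of the log2 ratio over 4 arrays (horizontal axis) for the 14029 genes with a spot above background, as a count of genes per bin (grey bars, vertical axis), with the 10 genes as labelled lines. Line heights only separate the labels. Herpud1 at 0.08 and Dnajb9 at 0.13 lie left of the median of 0.23, and Hspa5, Xbp1, Atf4 and Hsp90b1 lie at 0.66 or above.

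Likeness to Hspa5 was measured as the Euclidean distance between the 4 array values, over 14028 other genes with a spot above background. Among the members Calr came nearest, at rank 175, followed by Hsp90b1 at rank 272 and Manf at rank 540. Dnajb9 ranked 2886, and Pdia4, Xbp1, Herpud1, Ddit3 and Atf4 ranked between 7604 and 11550. The 5 nearest genes were Sh3rf2 (distance 0.032), Tent5a (0.074), Anks1b (0.096), Zer1 (0.099) and Kcnd2 (0.102). Sh3rf2 had -0.01, 0.42, 0.24 and -0.20 on arrays 1 to 4. None of these 5 is an ER chaperone gene. The ranking rests on 4 values that are not independent.

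The wider pathway was described with 5 further lists, none of which held a gene with an adjusted p under 0.05 by limma. Of 29 measured ER chaperones and oxidoreductases outside the set, 10 were above 0 and 19 below (median -0.02), with 0 at an unadjusted p under 0.05. Pdia3, an oxidoreductase for glycoproteins, had the smallest p of these, with 0.23, 0.25, 0.008 and 0.003 on arrays 1 to 4. Cnpy3, a chaperone of Toll-like receptors, had -0.37, -0.40, 0.02 and 0.06. The widest ranges were those of Sdf2l1, a partner of ERdj3, with -0.33, 0.05, 0.43 and 0.07, and of Dnajc3, a BiP co-chaperone, with 0.04, 0.34, -0.0004 and -0.29. Their medians by array lay between -0.02 and 0.02, nearer to 0 than those of the 10 genes, which were -0.15, 0.11, 0.18 and -0.13.

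Of 24 measured genes of ER-associated degradation, 9 were above 0 and 15 below (median -0.03), with 0 at an unadjusted p under 0.05. Aup1, a lipid droplet and degradation factor, had -0.59, -0.50, 0.11 and 0.03 on arrays 1 to 4. Nploc4, a cofactor of the Vcp segregase, was below 0 on 4 of 4 arrays, with a fitted ratio of -0.10 (SE 0.05). Of 15 measured sensors and transducers, 7 were above 0 and 8 below (median -0.02), also with 0 at that threshold. Wfs1, an ER membrane protein, had -0.10, 0.45, 0.46 and -0.08, with the signs of the chaperones. Atf6b, a relative of ATF6, had -0.19, -0.41, -0.01 and 0.23. Casp12, a caspase of the ER, had a fitted ratio of 0.15 (SE 0.07), and Rtcb, the ligase that joins the spliced Xbp1 mRNA, had -0.15 (SE 0.08).

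Known ATF4 target genes were below 0 in 26 of 34, against 52% of all genes, with a median of -0.07 against -0.003 for all genes. Their medians were -0.10, -0.07, 0.004 and -0.03 on arrays 1 to 4, and on array 3 18 of 34 were above 0. Also below 0 were 19 of 29 ER chaperones and oxidoreductases, 15 of 24 degradation genes and 23 of 36 translocon genes. Among sensors and transducers it was 8 of 15. Genes of a list share the same 4 arrays and are not independent, and the counts were not tested. At an unadjusted p under 0.05, 2 of the 34 were lower, against 0.671% of all genes, and 0 higher. Gpt2, a mitochondrial alanine aminotransferase, had -0.20, -0.12, -0.16 and -0.23 on arrays 1 to 4, and a fitted ratio of -0.18 (SE 0.05). Slc3a2, the heavy chain of amino acid transporters, had -0.19, -0.08, -0.12 and -0.22, and a fitted ratio of -0.15 (SE 0.05). Both were below 0 on 4 of 4 arrays, and the adjusted p of each was 0.999 by limma.

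Translocon and early secretory genes were above 0 in 13 of 36 (median -0.02), with 0 at an unadjusted p under 0.05. Kdelr1, a receptor that returns ER chaperones from the Golgi, had -0.42, -0.76, -0.22 and 0.14 on arrays 1 to 4, lowest on array 2, where Hspa5 was highest. Its fitted ratio was -0.32 (SE 0.15). Sec61g, a translocon subunit, had a fitted ratio of 0.10 (SE 0.05) and was above 0 on 4 of 4 arrays.

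**Figure D5:**
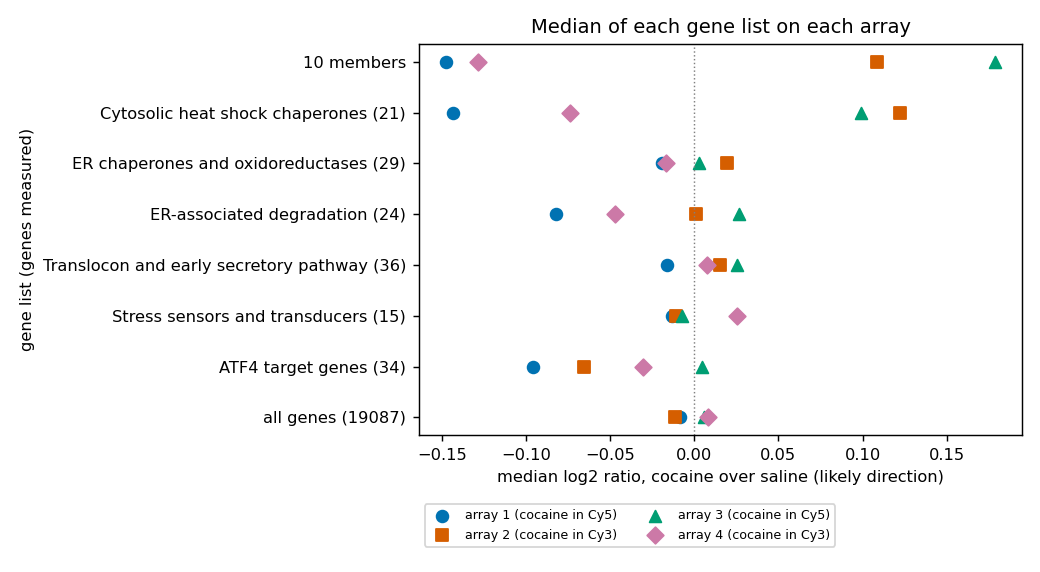
Median log2 ratio of cocaine over saline (horizontal axis, likely direction) of each gene list (vertical axis, with the number of genes measured) on each array (symbols). The 10 genes and the cytosolic heat shock chaperones lie below 0 on arrays 1 and 4 and above 0 on arrays 2 and 3, and the other pathway lists lie within 0.10 of 0.

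Cytosolic heat shock chaperones had medians close to those of the 10 genes, at -0.14, 0.12, 0.10 and -0.07 on arrays 1 to 4. Of 21 measured, 12 were above 0 on arrays 2 and 3 and below 0 on arrays 1 and 4, against 10.9% of all genes. Hspa8, the constitutive Hsp70, had -0.67, 0.11, 0.31 and -0.46, and the inducible Hspa1a had -0.30, 0.28, 0.47 and -0.11. None of these 21 had an unadjusted p under 0.05. The other genes with an ERSE were also examined. Of the 34 genes outside the set with an ERSE, 19 were measured. That sign pattern was seen in 1 of the 19, against the same 10.9% of all genes. It was the disulfide isomerase gene Pdia6, with -0.04, 0.15, 0.09 and -0.10. The 19 had medians of -0.01, 0.02, -0.0004 and -0.04 and a median range of 0.11, and 17 had a spot above background. The same sign on 4 of 4 arrays was seen in 8 of the 19 (42.1%), against 14.8% of all genes. At an unadjusted p under 0.05 by limma 1 was lower, against 0.671% of all genes, and 0 higher. This list was drawn from sequence after the array values were seen.

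Markers of other cells varied over the same arrays. Striatal projection neuron markers, from the structure beside the pallidum, had medians of 0.02, 0.22, 0.13 and -0.10 on arrays 1 to 4. They were above 0 in 5 of 9 on array 1, 7 of 9 on array 2, 9 of 9 on array 3 and 1 of 9 on array 4. Of these 9 markers, 8 had a spot above background. Of all 19087 genes, 8963, 8803, 10074 and 10170 were above 0 on arrays 1 to 4. Markers of pallidal neurons varied among themselves, with 5 of 11 above 0 on array 2. Gad2, a GABA-synthesizing enzyme of pallidal and striatal neurons, had -0.09, 0.49, 0.13 and -0.49, and the transcription factor gene Npas1 had -0.12, -0.24, -0.12 and 0.0008. Blood markers, 3 of 4 with a spot above background, were divided on arrays 1 and 2, with 2 of 4 above 0 on each. On array 3 they were above 0 in 0 of 4 and on array 4 in 4 of 4. S100a9, a neutrophil protein, had 0.81, 0.59, -0.02 and 0.22, and the globin gene Hba-a1 had -0.28, -0.65, -0.34 and 0.03. Medians of pallidal neuron, astrocyte and choroid plexus markers lay between -0.06 and 0.07 on every array. Oligodendrocyte markers (-0.11 to -0.05), microglia markers (-0.14 to 0.06), endothelial markers (-0.07 to 0.09) and meningeal markers (-0.03 to 0.07) completed the lists. Among the meningeal markers Ptgds, a prostaglandin D synthase that oligodendrocytes also express, was below 0 on 4 of 4 arrays, with -0.27, -0.26, -0.30 and -0.35. Its fitted ratio was -0.29 (SE 0.05, adjusted p = 0.999 by limma), against a median of 0.05 for the 7 meningeal markers. The part of these cell markers in the array values of the chaperones was not tested, and their levels cannot be given from ratios.

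The count of 0 genes at an unadjusted p under 0.05 became 2 without array 3 (Atf4 and Xbp1), against 4.91% of all features. It became 1 without array 4 (Hspa5), against 8.76% of all features, with none past the adjusted threshold. In the fit to all 4 arrays that share of features was 1.74%. The sign of a fitted ratio depended on single arrays for 7 of the 10 genes. Hspa5 had 0.27 without array 4 and -0.03 without array 2. Atf4 had -0.37 without array 3 and 0.0003 without array 1, and Xbp1 had -0.26 without array 3 and 0.07 without array 1. In such fits, an array that is the last of its dye orientation has the weight of the other pair together. Herpud1, Dnajb9 and Ddit3 kept their sign in all 4 such fits.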

How the data were processed

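RNA of 8 mice (8 animal codes in the labels) was compared on 4 two-colour arrays, from 75 ng of total RNA per labelling reaction, per the labels' protocols. Agilent Feature Extraction is the tool in the submitters' processing notes. The deposited values are log2 ratios, 1 per spot and array, for 45220 spots. Spot flags and slide or scan information were not used here. Whether the authors subtracted background or normalized between channels is not given in the sources used here, and the array medians lay between -0.56 and 0.49.

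Spots at 0 on all arrays (202) were left out. Each column was normalized by loess (span 0.3) on the mean dye bias of the 2 orientations. Platform symbols (annotation checked by Entrez identifier against RefSeq, GRCm38.p6: 33517 of 33653 probes with 1 symbol matched, 0 symbols changed) were used, and spots of a gene averaged, giving 30452 features. Each was fitted with limma 3.58.1 in R 4.3.3 on treatment and dye, followed by eBayes (5.21 degrees of freedom), with Benjamini-Hochberg adjustment over all features at 0.05. The steps were tested on simulated data, where the check was only that the median of the added changes was recovered. How many changed features would be called is not reported here. The background stand-in lies 3 SDs above the mode of the averaged dye bias over all spots, with the SD taken from values below that mode.

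Each array counts as 1 replicate, since the labels describe independent hybridizations of animals with different codes. The number of arrays limits the precision. Members and lists were chosen with earlier results of these data known. The text names all members, for each pathway list genes taken from the 2 with the smallest p and the 2 with the widest range, and the 5 genes nearest to Hspa5. Marker genes follow the same rule. Pdia6 was named after its values were seen. Alternatives were median centring, no normalization, a loess span of 0.6, no dye term, the median over spots, spots above background alone, robust eBayes and leaving out each array.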

Additional observations from a re-analysis of the deposited data

Results flagged for a closer look

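Of 28 groups of 4 array values examined (the 10 genes and the medians of the gene lists), 1 had an array far from the others: the median of the stress sensors and transducers was 0.03 on array 4 and between -0.013 and -0.007 on arrays 1 to 3 (gap over range 0.849). For 4 independent values chance gives about 1 such group in 20. The normalization ties the 4 values, so that rate does not apply here. None of the 10 genes stood out in this way, which the normalization nearly fixes.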

How the results depend on the processing

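No member passed an adjusted p of 0.05 under any alternative run. Of all features 0 passed, against 18 after centring arrays on their medians, with 0 members among them. In the centred fit every member had the same SE, 0.111, so a gene's own spread between arrays did not enter. The 18 are therefore not comparable with the 0 of the main fit. The members' median lay between -0.085 and 0.076 when single arrays were left out, and between -0.004 and 0.011 under the other alternatives. A loess span of 0.6 turned Hsp90b1 to 0.00135. Leaving out each array in turn moved the log2 ratio between these ends: -0.160 and 0.217 for Hsp90b1, -0.0297 and 0.269 for Hspa5, -0.0890 and 0.120 for Calr, -0.0548 and 0.127 for Manf, -0.0143 and 0.140 for Pdia4, -0.258 and 0.0729 for Xbp1, and -0.372 and 0.000328 for Atf4. Herpud1, Dnajb9 and Ddit3 did not change sign under any alternative run. Features with an unadjusted p under 0.05 numbered 529 of 30452, against 1900 with no dye term and 295, 1495 and 2668 without arrays 1, 3 and 4, and the cause was not tested. The fit with no dye term counts the array values of a gene as independent, which after this normalization they are not. With spots above background alone, features with an unadjusted p under 0.05 were 337 of 19197, nearly the same share (1.76%, against 1.74%). Among members, 0 became 2 without array 3, where 4.91% of all features passed, and 1 without array 4, where 8.76% passed. If background was not subtracted before deposit, folds of dim transcripts are understated.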
